A study of Mus musculus with 2 samples.

Results

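The genes described here encode the enzymes that prepare collagen lysines for cross-linking and then oxidise them: the lysyl oxidases Lox, Loxl1, Loxl2, Loxl3 and Loxl4 and the collagen lysyl hydroxylases Plod1, Plod2 and Plod3. The list of 10 genes also holds P4ha3 and P4hb, which are subunits of prolyl 4-hydroxylases and act on proline, not lysine. The genes were chosen by name, through every probe set (a group of short array probes that reads 1 stretch of transcript) whose platform annotation gives a listed symbol and no other. By that rule 9 of the 10 genes had 15 probe sets, out of 18193 genes with a probe set of their own on the array. Loxl2 had none, since both probe sets that carry its symbol are annotated to a predicted gene as well.

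The samples were 1 array of shLrrfip1a cells, which carried a hairpin against Lrrfip1, and 1 array of control cells, which carried a hairpin spelled shLCUI in the sample labels and shLUCI in the design text. Both were cultures of C2C12, an established mouse myoblast line that fuses into myotubes in low serum. Both were grown with 10% fetal bovine serum, switched to 2% horse serum for 5 days and read from 6 ug of total RNA on Affymetrix arrays. Only 1 hairpin against Lrrfip1 was used, and the labels do not say whether the cells were clones or pools. With 1 array per group, no spread between cultures is known, so no difference below has a test, a p-value or an SD between cultures, and differences are described by size.

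Collagen is hydroxylated on proline and lysine inside the endoplasmic reticulum while its chains are still unfolded, by enzymes that need iron, oxygen, 2-oxoglutarate and ascorbate. Hydroxyproline stabilises the triple helix, and hydroxylysine carries sugars and gives the more stable kinds of cross-link. After secretion and removal of the propeptides, lysyl oxidases, which are copper enzymes, turn lysine and hydroxylysine side chains into aldehydes that join neighbouring collagen or elastin molecules. In muscle these cross-links set the stiffness of the matrix around the fibres.

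All 3 Lrrfip1 probe sets read lower on the shLrrfip1a array, at 62.2% to 70.6% of their control intensities. The median intensity over all probe sets was 53.5 on the shLrrfip1a array and 51.4 on the control array. Of the cell type markers, the myotube genes Myog, Myh3, Acta1, Ckm and Des all lay above the level filter (a mean over both arrays above the median probe set, an intensity of about 52.4), with summed intensities of 10603 in shLrrfip1a cells and 11728 in control cells. They did not all differ in 1 direction. Myog (2005 in shLrrfip1a cells and 2612 in control cells), Acta1 and Des read lower in shLrrfip1a cells. Ckm (422 in shLrrfip1a cells and 321 in control cells) and Myh3 read higher. Of 5 fibroblast markers Pdgfra, Thy1, Dcn and Col3a1 lay above it and Lum did not, with sums of 11420 in shLrrfip1a cells and 7980 in control cells, and the Dcn probe set accounted for most of that gap at 3497 in shLrrfip1a cells against 260 in control cells. None of the measured adipocyte (Adipoq, Fabp4, Cidec), osteoblast (Ibsp, Sp7, Dmp1) or endothelial (Pecam1, Cdh5, Tek) markers lay above it. Of the blood cell markers Ptprc and Cd68 lay below it and Adgre1 was at its edge (58.0 in shLrrfip1a cells and 57.7 in control cells). The part of any cell type in the differences below was not tested, and in a bulk sample fewer cells of a type and less RNA per cell cannot be told apart.

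Of the 9 measured genes, 8 were lower in the shLrrfip1a array and P4ha3 was higher, where 49.3% of all 11448 genes above the level filter were lower. The members were chosen with earlier results of these data known, so the shares of all genes are given for description only. The median difference of the 9 was -0.31, against 0.00 over all genes, on the log2(intensity + 16) scale on which every difference here is given (shLrrfip1a minus control). None of the 9 reached 2-fold, a size that 1.35% of all genes passed in either direction. At 1.5-fold P4ha3 was past the size as higher (2.34% of all genes) and none was past it as lower (2.46% of all genes). These calls lay close to the size, 0.58 on the log2 scale. Lox passed it as lower with median centring (-0.59), quantile normalization (-0.59) and the mean over probe sets (-0.75), and P4ha3 did not reach it with median centring (0.56) or a pseudocount of 64 (0.50). Of the 15 probe sets 12 lay above the level filter, and 11 of those 12 were lower, against 49.1% of all such probe sets. Scaling both arrays to the spike-in controls adds 0.16 to every difference, after which 6 of the 9 genes were lower and their median was -0.15. The members were thus mostly lower by modest amounts, and 7 of the 9 lay between the 5th and 95th percentiles of all genes, at -0.44 and 0.44.

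**Figure D1:**
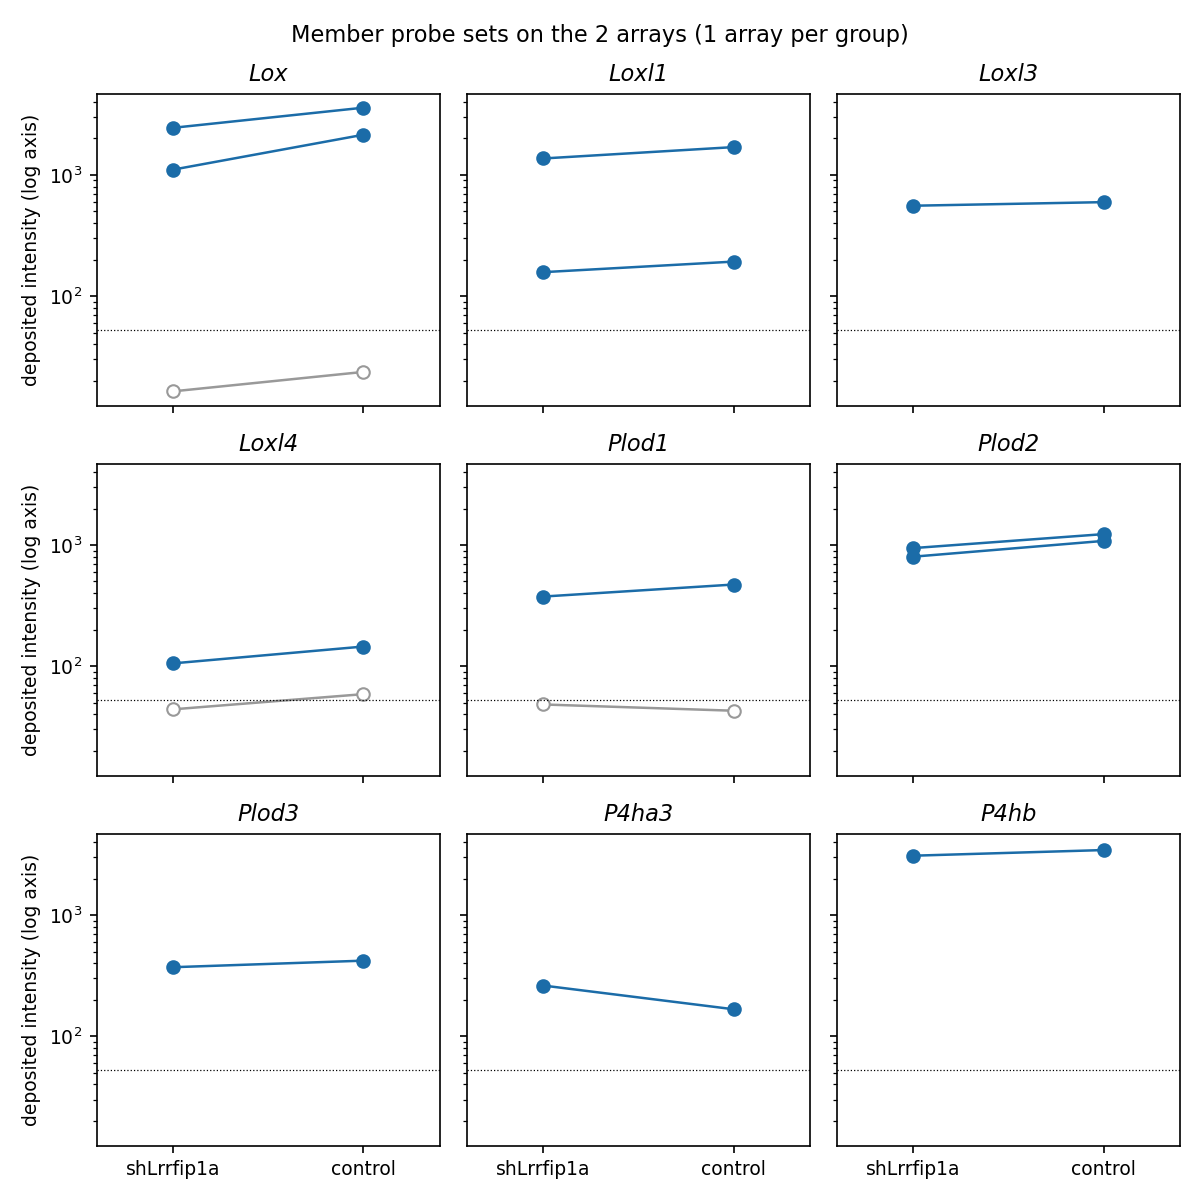
Deposited intensity (log axis) of every probe set of the 9 measured genes, with the shLrrfip1a array on the left and the control array on the right of each panel. Filled points lie above the level filter by their mean over both arrays, open points do not, and the dotted line is the filter at an intensity of about 52.4; P4ha3 and the dim Plod1 probe set are the ones that read higher in shLrrfip1a cells.

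Lox, the founding lysyl oxidase and the main cross-linking enzyme of fibrillar collagen and elastin, differed most among the lower genes. Its brightest probe set read 2451 in shLrrfip1a cells and 3593 in control cells, a difference of -0.55. A second probe set, designed from the same transcript record, read 1107 in shLrrfip1a cells and 2148 in control cells, a difference of -0.95. Lox transcript was therefore at 68.2% of the control intensity by one probe set and at 51.5% by the other, so the size of its difference depends on the probe set while the direction does not. The third Lox probe set was dim, at 16.3 in shLrrfip1a cells and 23.6 in control cells. The 2 brighter probe sets averaged -0.75 ± 0.28, where the SD is between probe sets on 1 RNA sample a group and says nothing of cultures. By its brightest probe set, 2.87% of all genes had a lower difference than Lox. The second Lox probe set was the 1 member probe set past 1.5-fold lower, a size that 2.32% of all single-symbol probe sets above the filter passed.

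Loxl1, the family member most closely tied to elastic fibre upkeep, was lower on both of its probe sets and by nearly the same amount. It read 1368 in shLrrfip1a cells and 1698 in control cells on the brighter one (-0.31), and 158 in shLrrfip1a cells and 193 in control cells on the other (-0.27). The probe sets thus gave 80.6% and 81.8% of the control intensity, and 10.5% of all genes had a lower difference. Loxl3, a member with scavenger receptor domains, read 557 in shLrrfip1a cells and 596 in control cells, a difference of -0.10 that turned to 0.06 with spike-in scaling. With 32.5% of all genes lower than Loxl3, its arrays were nearly level.

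Loxl4, another member with scavenger receptor domains, read 105 in shLrrfip1a cells and 145 in control cells, a difference of -0.41. Its dimmer probe set, below the level filter, read 44.0 in shLrrfip1a cells and 58.7 in control cells (-0.32). Both probe sets pointed the same way, but both are dim, and the difference ranged from -0.46 to -0.25 over the alternatives. The window from 250 bases before to 50 after the start of a gene was available for Loxl4, P4ha3, P4hb, Plod1 and Plod3, and it was searched on both strands for the core of the hypoxia response element, ACGTG or GCGTG, because hypoxia is a textbook inducer of several collagen-modifying enzymes. The Loxl4 window is shown since Loxl4 had the most negative difference of these 5 genes. It holds 1 core match, in capitals and on the opposite strand (RefSeq sequence, GRCm38.p6, chr19:42612757-42613056, minus strand).
Loxl4: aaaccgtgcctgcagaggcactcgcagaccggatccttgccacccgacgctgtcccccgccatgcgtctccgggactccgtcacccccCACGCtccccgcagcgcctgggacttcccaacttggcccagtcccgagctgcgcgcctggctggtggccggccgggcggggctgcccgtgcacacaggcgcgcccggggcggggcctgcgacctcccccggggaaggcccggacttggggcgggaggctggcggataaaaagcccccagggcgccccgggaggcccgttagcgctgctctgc

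The 2 probe sets that carry the Loxl2 symbol are also annotated to the predicted gene Gm21451, so their signal was not assigned to Loxl2, whose product cross-links collagen including that of basement membranes. The brighter of them read 45.7 in shLrrfip1a cells and 166 in control cells, a difference of -1.56. The other, which did not pass the level filter, read 9.25 in shLrrfip1a cells and 51.35 in control cells, a difference of -1.42. With the pseudocount of 16 both were at least 2-fold lower, and by more than any probe set of the 9 assigned genes. They were at 27.5% and 18.0% of the control intensity. Among all 551 several-symbol probe sets that passed the level filter, the brighter one included, 0.907% were lower by 2-fold or more. The brighter one passed only through its control reading, since 45.7 in shLrrfip1a cells lies below the filter at about 52.4. That share is therefore given for description only. Both probe sets were dim in shLrrfip1a cells, so the size depends on the pseudocount: with 64 in place of 16 the differences were -1.07 and -0.66. With 64 the dimmer one was short of 2-fold, and its order against the member probe sets was not compared. Whether Loxl2, the predicted gene or both gave this signal cannot be told apart.

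Plod2, the hydroxylase of the collagen telopeptide lysines and so the enzyme of the pyridinoline type of cross-link, was lower on both of its probe sets. The brighter read 943 in shLrrfip1a cells and 1230 in control cells, a difference of -0.38. The other read 801 in shLrrfip1a cells and 1081 in control cells, a difference of -0.43. The probe sets differed little from each other, averaging -0.40 ± 0.03 (SD between probe sets), and 7.07% of all genes had a lower difference than Plod2. With Lox and Loxl1, Plod2 was 1 of 3 genes with several probe sets above the filter, and all probe sets were lower in all 3. Of all 4853 genes with several such probe sets, 30.4% had all of them lower.

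Plod1, which hydroxylates lysines in the triple-helical part of collagen, read 375 in shLrrfip1a cells and 472 in control cells, a difference of -0.32. Its second probe set lay below the level filter and pointed the other way, at 48.2 in shLrrfip1a cells and 42.8 in control cells (0.13). Plod1 was therefore lower by its bright probe set alone, with 9.91% of all genes lower still. Its start window holds 2 hypoxia core matches, both as GCGTG on the printed strand and in capitals. Plod3 and P4hb, also lower with the deposited scaling, had more matches (4 and 3), and their windows are not printed. The Plod1 window is shown as an example of a lower gene with several matches (RefSeq, GRCm38.p6, chr4:147936727-147937026, minus strand).
Plod1: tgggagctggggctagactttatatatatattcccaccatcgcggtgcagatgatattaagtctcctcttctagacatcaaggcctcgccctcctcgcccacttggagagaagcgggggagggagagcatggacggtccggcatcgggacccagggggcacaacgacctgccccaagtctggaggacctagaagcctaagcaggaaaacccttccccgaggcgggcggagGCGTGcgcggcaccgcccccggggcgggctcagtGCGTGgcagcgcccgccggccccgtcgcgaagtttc

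Plod3, which both hydroxylates lysine and adds glucose to galactosylated hydroxylysine, read 371 in shLrrfip1a cells and 420 in control cells, a difference of -0.17. That difference came to -0.01 with spike-in scaling, and 22.2% of all genes were lower than Plod3. The order of the 3 lysyl hydroxylases by difference was Plod2, Plod1 and Plod3. The gaps between neighbours in that order are within the robust spread of all genes' differences, 0.23 (a scaled median absolute deviation between these arrays, not a replicate error), so the order itself carries little weight.

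P4ha3, which encodes an alpha subunit, the catalytic part of a prolyl 4-hydroxylase, was the 1 member that read higher. Its only probe set read 262 in shLrrfip1a cells and 167 in control cells, a difference of 0.60, and 2.17% of all genes had a higher difference. It stayed higher under each alternative, with differences of 0.50 to 0.76, but 1 probe set cannot be checked against another. The P4ha3 start window is shown as that of the higher gene. It holds no hypoxia core match and is printed in lower case throughout (RefSeq, GRCm38.p6, chr7:100285270-100285569, plus strand).
P4ha3: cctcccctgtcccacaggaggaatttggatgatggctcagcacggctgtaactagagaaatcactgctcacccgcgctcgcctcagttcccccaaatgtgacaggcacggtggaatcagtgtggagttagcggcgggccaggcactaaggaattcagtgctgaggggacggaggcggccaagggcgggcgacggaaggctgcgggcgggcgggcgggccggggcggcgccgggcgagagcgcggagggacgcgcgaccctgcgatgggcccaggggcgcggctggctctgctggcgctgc

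Across the start windows of the 5 genes, the hypoxia core matches numbered 1 for Loxl4, 2 for Plod1, 4 for Plod3, 3 for P4hb and 0 for P4ha3. Of 32851 mouse start windows of the same length, 43.8% held at least 1 match and 20.6% held 2 or more. The windows of the 5 genes were 53.3% (Plod3) to 75% (Loxl4) G and C. The 32851 windows were not matched to them in base content, so these shares are given for description only. Plod3 had the most matches and a difference of -0.17, and Loxl4 had 1 match and a difference of -0.41. Lox and Plod2 were not among the 5 genes, and whether matches go with differences was not tested. The muscle E-box, CANNTG, which overlaps the hypoxia core where CACGTG occurs, was found once for P4ha3 and Plod3, 2 times for Plod1 and not in the other windows, and 72.3% of all windows held it. A match is a description of the letters and not evidence of a bound site.

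P4hb, protein disulfide isomerase, serves as the beta subunit of collagen prolyl 4-hydroxylases and also folds other secreted proteins. It read 3093 in shLrrfip1a cells and 3443 in control cells, a difference of -0.15 that was 0.01 with spike-in scaling. P4hb was thus close to level, and its partner P4ha3 differed in the opposite direction from most of the list.

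**Figure D2:**
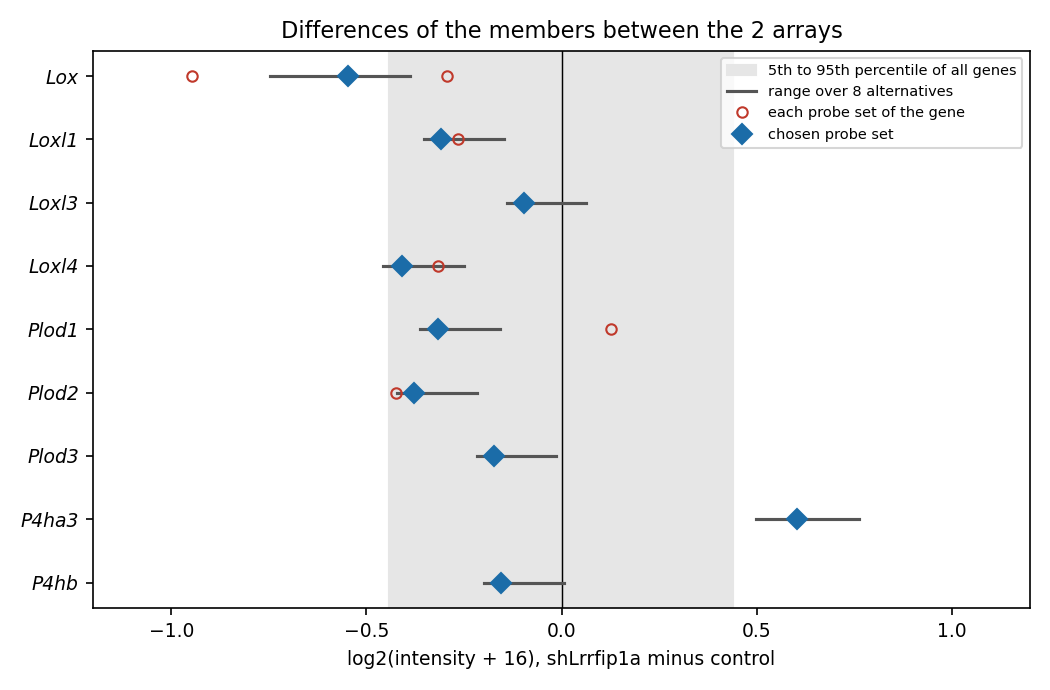
Difference between the shLrrfip1a and the control array for each measured gene on the log2(intensity + 16) scale. Diamonds are the brightest probe set, circles every probe set, lines the range over 8 alternatives that were run gene by gene, and the grey band the 5th to 95th percentile of all 11448 genes (-0.44 to 0.44); Lox at -0.55 and P4ha3 at 0.60 lie outside it.

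The other proline-modifying genes differed in both directions, with 4 of 8 lower and a median of 0.03 (-0.02 with median centring). The catalytic subunits P4ha2 and P4ha1 were the lowest: P4ha2 read 399 in shLrrfip1a cells and 746 in control cells (-0.88), and P4ha1 read 954 in shLrrfip1a cells and 1289 in control cells (-0.43). P4ha3 therefore differed in the opposite direction from the other 2 alpha subunits. Crtap, a partner of the prolyl 3-hydroxylase complex, read 1196 in shLrrfip1a cells and 960 in control cells (0.31). None of the 8 reached 2-fold, against 1.35% of all genes.

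Among genes of collagen glycosylation, folding and export, 6 of 10 were lower and the median was -0.11, which turned to 0.05 with spike-in scaling. Ero1a, the oxidase that recharges protein disulfide isomerase, was the 1 gene at least 2-fold lower (a size that 0.69% of all genes passed), at 337 in shLrrfip1a cells and 732 in control cells (-1.08), and its 3 probe sets above the filter all pointed that way. Pdia4, a further disulfide isomerase, differed by -0.51 on its brightest probe set, while 1 of its 2 probe sets was not lower. Fkbp14, a prolyl isomerase of the endoplasmic reticulum, differed by 0.28 (372 in shLrrfip1a cells and 302 in control cells).

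Of 8 measured genes of propeptide removal and lysyl oxidase activation, 5 lay above the level filter and 3 of these were lower. Their median of -0.07 turned to 0.09 with spike-in scaling and came to -0.23 with the mean over probe sets. Postn, a matricellular protein that in mice promotes the activation of Lox by Bmp1, read 2613 in shLrrfip1a cells and 3617 in control cells (-0.47). Bmp1, the protease that removes the propeptides of procollagen and of Lox, differed by -0.16. Pcolce, which speeds that cleavage of procollagen, differed in the other direction, at 2325 in shLrrfip1a cells and 1726 in control cells (0.43). The copper supply genes were close to level, with a median of -0.10 (0.06 with spike-in scaling) over 4 genes. Their most different members were the copper importer Slc31a1 (-0.35), the copper chaperones Ccs (-0.19) and Atox1 (0.09). The pump Atp7a, which loads lysyl oxidases with copper, read 257.09 in shLrrfip1a cells and 257.63 in control cells.

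The fibrillar collagen and elastic fibre genes differed in both directions. They include substrates of the cross-linking enzymes and also other elastic fibre genes, such as Fbln5. Of 11 fibrillar collagen and elastic fibre genes above the filter 7 were lower (49.3% of all genes) and 2 were at least 2-fold lower (0.69% of all genes). Their median was -0.25, but -0.09 with spike-in scaling, -0.03 over 13 genes with no level filter and -0.42 over 9 genes with the filter at the 75th percentile. Col5a3, a minor fibrillar chain, read 195 in shLrrfip1a cells and 540 in control cells (-1.40), and Col11a1, another chain that sits inside the fibril, read 161 in shLrrfip1a cells and 388 in control cells (-1.19). Fbln5, which tethers Loxl1 to elastic fibres, read 738 in shLrrfip1a cells and 1130 in control cells (-0.60). Of the chains of types I and III, Col1a1 was lower on both of its probe sets, at 1384 in shLrrfip1a cells and 1854 in control cells (-0.42), while Col1a2 and Col3a1 differed by -0.03 and 0.05. Col5a1 differed by -0.49, Col5a2 by -0.25, the elastic fibre genes Emilin1 and Ltbp4 by 0.48 and 0.19, and elastin (Eln) by 0.06 (78.6 in shLrrfip1a cells and 74.7 in control cells).

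Of the hypoxia-responsive genes 11 of 12 were lower (49.3% of all genes), with a median of -0.70 against -0.31 for the members. This list, like the others, was written with earlier results of these data known, so its counts beside all genes are a description only. Car9, a membrane carbonic anhydrase, read 131 in shLrrfip1a cells and 823 in control cells (-2.52). Egln3, an oxygen-sensing prolyl hydroxylase of the hypoxia pathway, read 332 in shLrrfip1a cells and 1146 in control cells (-1.74), and Bnip3, a mitophagy receptor, read 570 in shLrrfip1a cells and 1929 in control cells (-1.73). These 3 were at least 2-fold lower, a size that 0.69% of all genes passed. Car9 and Bnip3 each rested on 1 probe set above the filter, while both such probe sets of Egln3 were lower. P4ha1 and P4ha2 belong to both this list and the prolyl hydroxylation list. Plod2 and Lox, which are also known to be induced in low oxygen, differed by -0.38 and -0.55 on their brightest probe sets, less than the median of the 12. For Lox that order turned with the mean over probe sets, at -0.75 for Lox against -0.63 for the median of the 12. Oxygen, cell density and medium were not recorded in the labels, and their part in these differences was not tested.

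Genes responsive to TGF-beta and BMP, which are inducers of many matrix genes, had a median of 0.01 over 7 genes (-0.04 with median centring), 3 lower and 4 higher. The largest differences were positive: Id3, an inhibitor of myogenic factors, read 516 in shLrrfip1a cells and 178 in control cells (1.46), Fst, an activin antagonist, read 1375 in shLrrfip1a cells and 695 in control cells (0.97), and Id1 read 344 in shLrrfip1a cells and 216 in control cells (0.63). Of the 7, Id3 alone was at least 2-fold higher, a size that 0.664% of all genes passed.

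**Figure D3:**
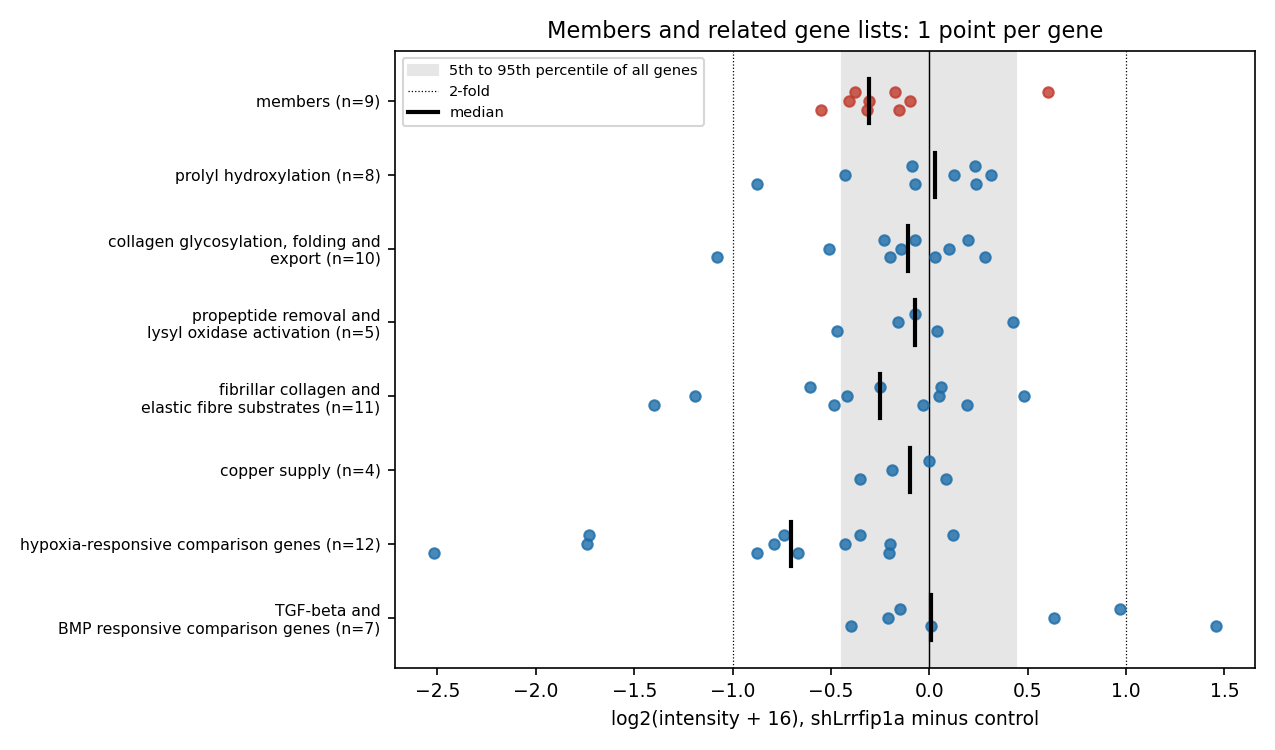
Differences of the members (top, 9 genes) and of the related gene lists on the log2(intensity + 16) scale, shLrrfip1a minus control, with 1 point per gene above the level filter and a black bar at each median. The grey band is the 5th to 95th percentile of all genes and the dotted lines mark 2-fold; the members centre on -0.31, the hypoxia-responsive genes on -0.70 and the TGF-beta and BMP responsive genes on 0.01.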

How the data were processed

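Per the labels' protocols, biotin-labelled cRNA made from total RNA was read on Affymetrix arrays. The authors deposited linear intensities, 1 for each probe set of each array. How they summarised, corrected and scaled them is not given in the sources used here, and no detection calls were used. With 2 arrays the number of arrays limits the precision. Of 45101 probe sets, 34958 had 1 gene symbol in the platform annotation, 932 had several and 9211 had none.

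Values were taken as log2(intensity + 16), which understates differences of dim genes. A gene was read by its brightest probe set (mean of both arrays) and kept when that mean was above the median of all probe sets, leaving 11448 of 18193 genes. Among the named list genes, P4ha2, Crtap, Fkbp14, Postn, Ccs, Col5a3, Fbln5, Eln and Ltbp4 had only 1 probe set above the filter. The same held for Car9, Bnip3, Id1 and Id3. The differences of these genes could not be checked against another such probe set. Named genes are all members and markers, the Lrrfip1 probe sets and the 3 most different genes of each list; Col1a1, Col1a2, Col5a1, Col5a2, Emilin1, Ltbp4, Eln and Atp7a were named after their values were seen. Members and lists were chosen with earlier results of these data known. No gene could be named for likeness of pattern, since 2 arrays give none. Fkbp10, Fbn1, Efemp2, Adamts2, Adamts14, Plin1 and Bglap were not analysed here. The steps were tested on simulated data and run with pandas 2.3.3, numpy 2.4.6, statsmodels 0.14.6 and Python 3.11.15. The alternatives were scaling by the median, quantiles, a loess trend or 42 spike-in probe sets, pseudocounts of 1 and 64, no level filter or one at the 75th percentile, the mean over probe sets, leaving out probe sets with the suffix _s_at or _x_at, and sizes of 1.5-fold and 3-fold.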

Additional observations from a re-analysis of the deposited data

How the results depend on the processing

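No paired analysis was possible because there is 1 array a group, so none can be left out either. The count of members at least 2-fold different was 0 with each of the 10 other scalings, pseudocounts, filters and probe set rules and 0 at 3-fold, and 1 at 1.5-fold (P4ha3). It was also 1 when the probe sets shared by Loxl2 and Gm21451 were counted as Loxl2, an alternative chosen after seeing the data. The median difference of the members ranged from -0.35 with median centring to -0.15 with spike-in scaling. Of 72 member differences under alternatives, 2 changed sign, both with spike-in scaling: Loxl3 came to 0.06 and P4hb to 0.01. Of 70 list medians under alternatives, 7 changed sign, and 1, that of the TGF-beta and BMP list, moved by more than 0.23, to 0.32 with the filter at the 75th percentile, which left 6 genes. The number of genes past 2-fold over the whole array was 155, and 95 with a pseudocount of 64 or 94 with the stricter filter. Dim probe sets limit what can be said of Loxl4 and of the probe sets shared with Gm21451.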
